A study of Mus musculus with 12 samples.

Results

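The brains of Nsd2 KO embryos held less RNA of 4 serotonin receptor genes than WT brains over both sexes: Htr1a, Htr2a, Htr5a and Htr7. Htr1a and Htr2a passed the test whichever of the 12 libraries was left out. Htr7 passed in 5 of these 12 fits and Htr5a in 3, and in females alone 0 genes passed. The genes described here were chosen by symbol, as the 10 rows named Htr1a, Htr1b, Htr1d, Htr1f, Htr2a, Htr2c, Htr3a, Htr4, Htr5a and Htr7 among the 46078 genes of the count tables, and all 10 were present in all 12 libraries. The rule itself uses no measured value, but the family was picked with earlier results of these data known. The other serotonin receptor genes, Htr2b, Htr3b, Htr5b and Htr6, were kept as a list for comparison.

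RNA sequencing was done on brains at E15.5 of Nsd2 KO and WT mice, with 3 libraries from KO males, 3 from WT males, 3 from KO females and 3 from WT females. The KO allele lacks the whole coding sequence of Nsd2, an enzyme that places 2 methyl groups on lysine 36 of histone H3, in every cell and not in a chosen brain region or cell type, and KO pups die within 1 day of birth. No treatment was given. Which embryos were littermates was not given. The study used either of 2 versions of an rRNA depletion kit and either of 2 sequencers. Which library had which was not given, so a batch could not be entered as a term. Mitochondrial genes held 5.16% of the counts in WT female 2, 6.45% in KO female 1 and 7.10% in KO female 2. They held 1.59% to 2.97% in the other libraries. The libraries with the high shares also had the lowest totals, and the part of this split in the female results was not tested. Library totals ran from 40398665 to 59304196 counts and did not differ between the genotypes within a sex by a two-sided exact permutation test (p = 0.4 for males, 0.6 for females), though 3 against 3 cannot go below 0.1. Nsd2, listed as Whsc1, stood at 0.909 to 2.67 CPM (counts scaled to library size) in the KO libraries and 351 to 407 CPM in the WT libraries, which matched the labels. A list of 7 pan-neuronal genes, such as Map2 and Dcx, summed to 5338 to 5966 CPM over the KO libraries. It summed to 5571 to 5925 CPM over the WT libraries. In females all KO libraries (5338 to 5549 CPM) lay below all WT libraries (5571 to 5925 CPM), a pattern that 6.25% of all genes showed. In males the genotypes overlapped, at 5822 to 5966 CPM in KO and 5736 to 5875 CPM in WT libraries. Caudal Hox genes, which are expressed in the hindbrain and spinal cord and not in the forebrain or midbrain, were uneven among libraries of 1 genotype. Hoxa5 stood at 1 CPM or more in KO male 2, KO female 2, KO female 3, WT male 2, WT male 3 and WT female 3, and under 1 CPM in the other 6, so each genotype had 3 libraries on either side. The comparison over both sexes is therefore also given within each of these 2 sets of 6 libraries.

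Serotonin reaches the embryonic brain early, from neurons of the raphe nuclei in the hindbrain and, in the mouse, also from the placenta. All serotonin receptors but the Htr3 family are G protein-coupled: the Htr1 and Htr5 families couple to Gi/o and lower cyclic AMP, the Htr2 family couples to Gq and releases calcium through phospholipase C, and Htr4, Htr6 and Htr7 couple to Gs and raise cyclic AMP. The Htr3 receptors are ligand-gated cation channels. In the developing brain these receptors are known for their part in neurite growth, in the guidance of thalamic axons and in the migration of interneurons.

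The starts of the 4 genes that were lower in KO brains differ widely in base composition, and they are shown because NSD2 acts on chromatin. RefSeq promoter windows, reaching 250 bases before to 50 bases after an annotated start on GRCm38.p6, matched 8 of the 10 genes. The gene positions given further below come from GENCODE. The Htr5a window ends at 27841996, before the GENCODE start of that gene at 27842149. The capitals mark CG dinucleotides, the usual target of DNA methylation.
Htr1a, chr13:105443443-105443742, plus strand: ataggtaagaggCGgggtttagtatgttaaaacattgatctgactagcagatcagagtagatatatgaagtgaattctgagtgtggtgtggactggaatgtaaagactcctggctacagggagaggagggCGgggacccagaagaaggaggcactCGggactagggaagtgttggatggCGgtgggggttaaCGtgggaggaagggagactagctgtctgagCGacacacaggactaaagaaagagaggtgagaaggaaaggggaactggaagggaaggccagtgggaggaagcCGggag
Htr2a, chr14:74640624-74640923, plus strand: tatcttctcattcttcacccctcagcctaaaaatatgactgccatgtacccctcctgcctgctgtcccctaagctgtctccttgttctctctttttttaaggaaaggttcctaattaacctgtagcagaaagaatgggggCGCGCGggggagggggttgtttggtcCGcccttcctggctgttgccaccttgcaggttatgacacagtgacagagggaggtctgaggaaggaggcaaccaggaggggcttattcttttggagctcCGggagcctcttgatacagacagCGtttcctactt
Htr5a, chr5:27841697-27841996, plus strand: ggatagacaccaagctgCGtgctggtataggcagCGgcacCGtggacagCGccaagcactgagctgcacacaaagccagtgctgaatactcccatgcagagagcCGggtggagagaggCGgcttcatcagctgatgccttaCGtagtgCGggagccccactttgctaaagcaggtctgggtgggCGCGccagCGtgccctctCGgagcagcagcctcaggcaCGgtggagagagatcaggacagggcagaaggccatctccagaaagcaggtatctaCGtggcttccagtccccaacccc
Htr7, chr19:36057311-36057610, minus strand: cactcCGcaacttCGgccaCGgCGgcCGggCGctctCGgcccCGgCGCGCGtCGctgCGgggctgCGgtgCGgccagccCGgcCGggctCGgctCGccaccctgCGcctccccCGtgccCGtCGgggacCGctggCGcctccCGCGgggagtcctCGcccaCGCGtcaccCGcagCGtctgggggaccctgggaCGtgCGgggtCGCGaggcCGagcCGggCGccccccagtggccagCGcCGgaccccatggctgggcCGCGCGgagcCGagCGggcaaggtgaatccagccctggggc

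The Htr7 window held 46 CG dinucleotides at 81% G and C, and only 1.65% of the 32851 promoter windows in the table held as many or more. The Htr5a window held 14, the Htr1a window 7 and the Htr2a window 6, against a median of 7 over all windows. Among the others, the windows of Htr1f, Htr1b and Htr2c held 13, 11 and 5, and Htr1d, which has annotated starts at 2 places, held 7 and 28. The GC box GGGCGG, searched on both strands, was found once each in the windows of Htr1a and Htr2a and in neither of those of Htr5a and Htr7, and 35.7% of all windows held it. A high CG content was thus not shared by the 4 genes, nor was the GC box.

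Levels were low throughout, and the order of the genes can be read only per length, as CPM per kilobase of annotated exon. In KO brains the highest mean per-length level was that of Htr3a (1.60 ± 0.471 CPM per kilobase, SD, n = 6), followed by Htr1b at 1.30 ± 0.271, Htr5a at 0.938 ± 0.159, Htr2c at 0.881 ± 0.327, Htr7 at 0.759 ± 0.350, Htr2a at 0.559 ± 0.0765, Htr1a at 0.396 ± 0.111 and Htr4 at 0.234 ± 0.0625. In WT brains Htr7 came first (2.03 ± 0.663 CPM per kilobase), followed by Htr1b at 1.81 ± 0.318, Htr3a at 1.34 ± 0.684, Htr5a at 1.30 ± 0.165, Htr2c at 1.11 ± 0.374, Htr1a at 1.03 ± 0.238 and Htr2a at 0.873 ± 0.0807. The ranges over WT libraries of any gene and the next in that order overlapped from Htr7 down to Htr2a, so these neighbours did not differ beyond their spread. Htr4 at 0.390 ± 0.0595 CPM per kilobase in WT brains lay below Htr2a in each WT library, since its highest value was 0.488 and the lowest of Htr2a was 0.766. Htr1d and Htr1f had the lowest means per length in both genotypes, at 0.224 ± 0.0535 and 0.106 ± 0.0471 CPM per kilobase in KO brains and 0.247 ± 0.125 and 0.0920 ± 0.0342 in WT brains. Htr1f rested on 7 to 20 counts in the KO libraries and 6 to 18 counts in the WT libraries, and Htr1d on 27 to 47 and 27 to 92, the lowest counts of the 10.

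**Figure D1:**
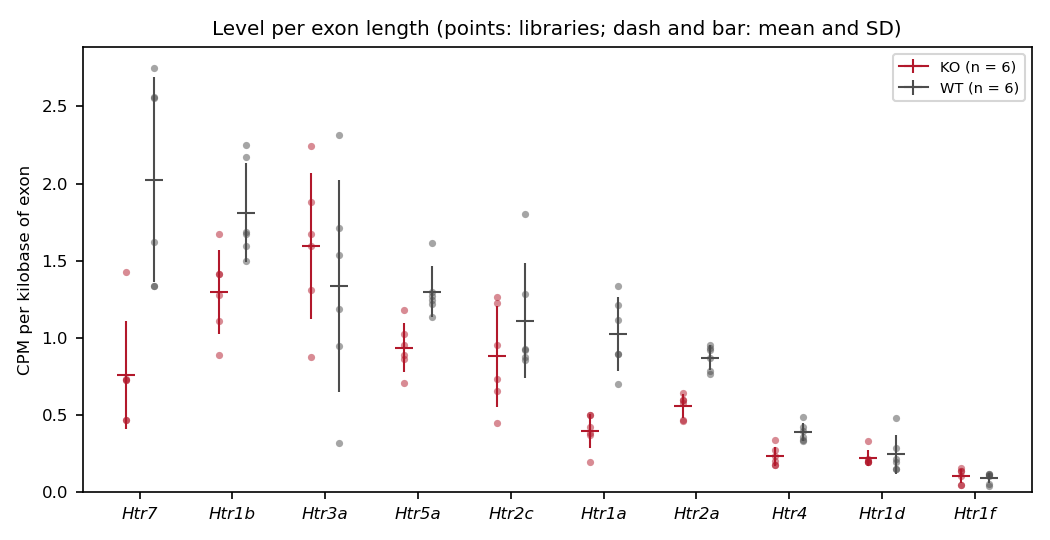
Level of each serotonin receptor gene in CPM per kilobase of annotated exon, in the order of the WT means, with KO (red) left of WT (grey); points are libraries, dashes means of 6 libraries and bars SD. Htr7 stood first in WT brains, at 2.03, and at 0.759 in KO brains, below Htr3a, Htr1b, Htr5a and Htr2c.

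To ask whether loss of NSD2 changed these genes, KO was compared with WT over both sexes in 1 edgeR fit with sex as a term. All 10 genes passed the filter on low counts. After adjustment over 19768 genes, 4 of the 10 were lower in KO brains and 0 were higher, where 1.52% of all genes tested were called lower and 0.374% higher. The log2 fold change was below 0 for 8 of the 10, against 49.4% of all genes, and an unadjusted p under 0.05 was found for 6 of the 10, against 13.7% of all genes. The median log2 fold change was -0.48 over the 10 genes and 0.00224 over all genes tested. In 2 genes, Htr1a and Htr2a, every KO library lay below every WT library, a pattern that 1.25% of all genes showed, and none of the 10 showed the opposite one, which 0.562% of all genes did. In RNA of a whole brain, fewer cells that express a gene and less of its RNA per cell cannot be told apart.

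**Figure D2:**
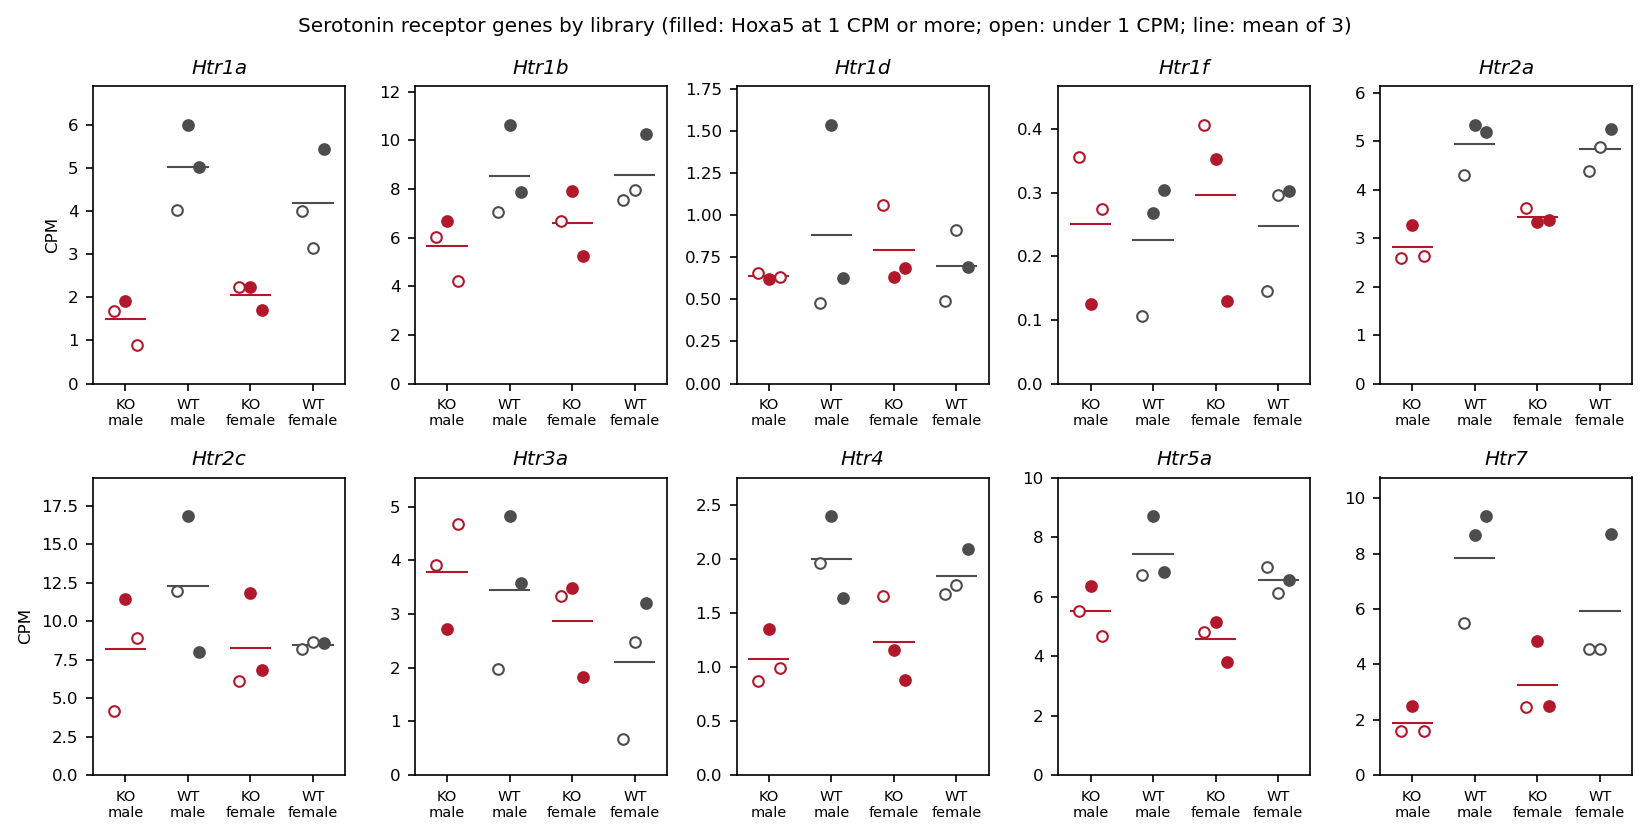
CPM of the 10 serotonin receptor genes in each library, with KO (red) left of WT (grey) in males and then in females; lines are means of 3 libraries, and filled points are libraries with Hoxa5 at 1 CPM or more. The KO and WT points are fully apart in Htr1a and Htr2a, and they overlap in the other 8 genes when the sexes are pooled.

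Of the Gi/o-coupled receptors, Htr1a changed most. Htr1a (ENSMUSG00000021721, chr13:105443639-105448122 on GRCm38, plus strand, a gene of 1 exon) encodes the autoreceptor of raphe neurons and a receptor of forebrain neurons that opens inwardly rectifying potassium channels. It had 1.68, 1.91 and 0.891 CPM in KO males, against 4.03, 6.01 and 5.02 CPM in WT males. In KO females it had 2.24, 2.24 and 1.72 CPM, against 4.01, 3.14 and 5.44 CPM in WT females. The highest KO library thus stayed below the lowest WT library. The level fell to 0.381 times that of WT, a log2 fold change of -1.39 (SE 0.219, 95% interval -1.86 to -0.919, adjusted p = 0.00443 by edgeR). The call was kept when each of the 12 libraries was left out in turn, with adjusted p from 0.00299 to 0.018.

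Htr1b (ENSMUSG00000049511, chr9:81628291-81633828, minus strand) encodes a receptor of axon terminals that curbs transmitter release and is known from mouse thalamic axons. It had 6.04, 6.68 and 4.22 CPM in KO males, against 7.07, 10.6 and 7.89 CPM in WT males, and 6.67, 7.90 and 5.24 CPM in KO females, against 7.53, 7.97 and 10.3 CPM in WT females. The KO and WT libraries were apart in males and overlapped in females, where KO female 2 lay above WT female 1. The log2 fold change was -0.49 (SE 0.149, interval -0.813 to -0.17), and it did not pass the adjustment (edgeR, adjusted p = 0.139). An antisense gene, D430036J16Rik, overlaps Htr1b, and as the strand setting of the counting was not stated, reads of the pair may not be separated.

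Htr1d and Htr1f, relatives of Htr1b that also act at axon terminals, gave no call. Htr1d (ENSMUSG00000070687, chr4:136423524-136444398, plus strand) had 0.659, 0.624 and 0.634 CPM in KO males, against 0.481, 1.54 and 0.628 CPM in WT males. In KO females it had 1.06, 0.635 and 0.690 CPM, against 0.490, 0.913 and 0.690 CPM in WT females. The groups overlapped in both sexes, and the log2 fold change of -0.14 had an interval of -0.784 to 0.496 (edgeR, adjusted p = 0.891). Htr1f (ENSMUSG00000050783, chr16:64924729-65105854, minus strand) ran from 0.125 to 0.407 CPM in the KO libraries and from 0.107 to 0.305 CPM in the WT libraries. Its log2 fold change of 0.20 had an interval of -0.635 to 1.03 (edgeR, adjusted p = 0.885).

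Htr5a (ENSMUSG00000039106, chr5:27842149-27855088, plus strand, with 2 coding exons), the other Gi/o-coupled receptor described here, is expressed mainly in the central nervous system. It had 5.50, 6.35 and 4.66 CPM in KO males, against 6.72, 8.70 and 6.84 CPM in WT males. In KO females it had 4.80, 5.15 and 3.802 CPM, against 6.99, 6.12 and 6.57 CPM in WT females. Within each sex all KO libraries lay below all WT libraries, and across the sexes KO male 2 lay above WT female 2. The level fell to 0.719 times that of WT (log2 fold change -0.48, SE 0.109, interval -0.712 to -0.241, adjusted p = 0.0424 by edgeR). This call lay close to the threshold, and it was kept in 3 of the 12 fits that left out a library, with adjusted p from 0.0358 to 0.125. It was lost without any of KO male 1, KO male 3, KO female 1, KO female 3, WT male 2, WT male 3, WT female 1, WT female 2 or WT female 3, while its log2 fold change stayed below 0 in all 12.

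Of the Gq-coupled receptors, Htr2a changed and Htr2c did not pass the test. Htr2a (ENSMUSG00000034997, chr14:74640840-74709494, plus strand, with 3 coding exons) encodes an excitatory receptor of cortical and other neurons. It had 2.58, 3.26 and 2.62 CPM in KO males, against 4.29, 5.34 and 5.19 CPM in WT males, and 3.62, 3.34 and 3.37 CPM in KO females, against 4.39, 4.89 and 5.25 CPM in WT females. No KO library reached the lowest WT library, and the libraries of each group lay close together. The level fell to 0.636 times that of WT (log2 fold change -0.65, SE 0.11, interval -0.888 to -0.416, adjusted p = 0.00719 by edgeR), and the call was kept without any 1 of the 12 libraries, with adjusted p from 0.00727 to 0.0269.

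Htr2c (ENSMUSG00000041380, chrX:146962513-147197277, plus strand) encodes a receptor that is edited at the RNA level and is known for its high expression in the choroid plexus, the epithelium that makes cerebrospinal fluid. It had 4.17, 11.4 and 8.89 CPM in KO males, against 11.99, 16.8 and 8.001 CPM in WT males, and 6.11, 11.8 and 6.86 CPM in KO females, against 8.19, 8.67 and 8.59 CPM in WT females. The KO libraries ran from 4.17 to 11.8 CPM and so reached below and above all WT females, and the log2 fold change of -0.32 had an interval of -0.901 to 0.265 (edgeR, adjusted p = 0.669). Several small RNA genes, among them Mir448 and Snora35, lie within Htr2c on the same strand.

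Htr2c moved with the choroid plexus markers. The 10 genes of that list, which include Ttr, summed to 316.6, 944.1 and 549.8 CPM in KO males, against 639.8, 985.9 and 401.1 CPM in WT males, and to 352.6, 692.9 and 299 CPM in KO females, against 285.3, 329.7 and 346.3 CPM in WT females. KO male 2 and KO female 2, the KO libraries with the most Htr2c, also had the highest sums in their groups, as did WT male 2. With the mean log2 CPM of the list beside sex and genotype, Htr2c rose by 0.93 on the log2 scale for each log2 unit of the list (SE 0.0838, adjusted p = 0.000452 by edgeR), and none of the other 9 genes was called for this term, which called 0.152% of all genes in that direction and 0.0101% in the other. In the same fit, chosen after the values had been seen, 6 of the 10 genes were lower in KO brains: the 4 above, Htr2c at -0.47 (adjusted p = 0.00675) and Htr4 at -0.77 (adjusted p = 0.0283). Calls over all genes also grew in number with this term, to 418 lower and 115 higher of 19768, against 301 and 74 without it. None of the 10 choroid plexus genes was called between KO and WT in either sex or over both.

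Htr3a (ENSMUSG00000032269, chr9:48899213-48911099, minus strand, with 9 coding exons), the subunit that can form the serotonin-gated cation channel on its own, is a marker of interneurons born in the caudal ganglionic eminence and of some sensory neurons. It had 3.92, 2.73 and 4.68 CPM in KO males, against 1.98, 4.82 and 3.57 CPM in WT males. In KO females it had 3.33, 3.48 and 1.83 CPM, against 0.672, 2.47 and 3.20 CPM in WT females. KO and WT overlapped in both sexes, with the lowest value in WT female 1, and the log2 fold change was 0.28 (interval -0.448 to 1.01, adjusted p = 0.786 by edgeR). Beside it, 11 markers of caudal ganglionic eminence interneurons, such as Nr2f2 and Gad2, had a median log2 fold change of 0.225. They gave 0 calls in either direction, where 1.52% of all genes were called lower and 0.374% higher. An antisense gene, Gm32335, overlaps Htr3a, with the same limit as for Htr1b.

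Htr7 and Htr4, the Gs-coupled receptors among the genes described here, had lower means in KO brains, and Htr7 passed the test. Htr7 (ENSMUSG00000024798, chr19:35958734-36057507, minus strand) raises cyclic AMP and is known from the thalamus, hypothalamus and hippocampus. It had 1.60, 2.48 and 1.59 CPM in KO males, against 5.51, 8.68 and 9.35 CPM in WT males. In KO females it had 2.47, 4.85 and 2.50 CPM, against 4.56, 4.54 and 8.71 CPM in WT females. All KO males lay below all WT males, while KO female 2 lay above WT female 1 and WT female 2. The level fell to 0.365 times that of WT (log2 fold change -1.46, SE 0.297, interval -2.1 to -0.809, adjusted p = 0.0276 by edgeR). Leaving out 1 library at a time kept the call in 5 of 12 fits, with adjusted p from 0.00339 to 0.0875 and log2 fold changes below 0 in all 12. It was lost without any of KO male 1, KO male 2, KO male 3, KO female 1, KO female 3, WT male 2 or WT female 3.

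Htr7 also moved with the caudal Hox genes. The 18 genes of that list summed to 7.517, 73.59 and 0.8566 CPM in KO males, against 26.54, 224.4 and 264 CPM in WT males, and to 5.679, 284.1 and 255.9 CPM in KO females, against 2.487, 1.086 and 274 CPM in WT females. The 3 WT libraries with the highest sums were those with the most Htr7, and KO female 2, the highest KO library for Htr7, had the highest sum of all. KO female 3, also with a high sum, and KO male 2 had 2.50 and 2.48 CPM of Htr7, close to the 2.47 CPM of KO female 1 with its low sum. With the mean log2 CPM of the list beside sex and genotype, the term itself was tested after the data had been seen. Htr7 rose by 0.16 on the log2 scale for each log2 unit of the list (SE 0.0257, adjusted p = 0.0121 by edgeR). The term called none of the other 9 genes and 0.84% of all genes in that direction, and 0.587% in the other. In this fit Htr7 was still lower in KO brains, with a log2 fold change of -1.39 (adjusted p = 0.000223). Within the 3 KO and 3 WT libraries with Hoxa5 under 1 CPM its log2 fold change was -1.34 (adjusted p = 0.0962), and within those at 1 CPM or more it was -1.55 (adjusted p = 0.27). In these fits of 6 libraries 0 of the 10 genes were called, and few of all genes were, with 35 lower and 7 higher of 18897 in the first and 2 lower and 8 higher of 18913 in the second. Htr1a stood at -1.17 in the first and -1.49 in the second. None of the 18 Hox genes was called between KO and WT, with a median log2 fold change of -0.75 over both sexes.

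**Figure D3:**
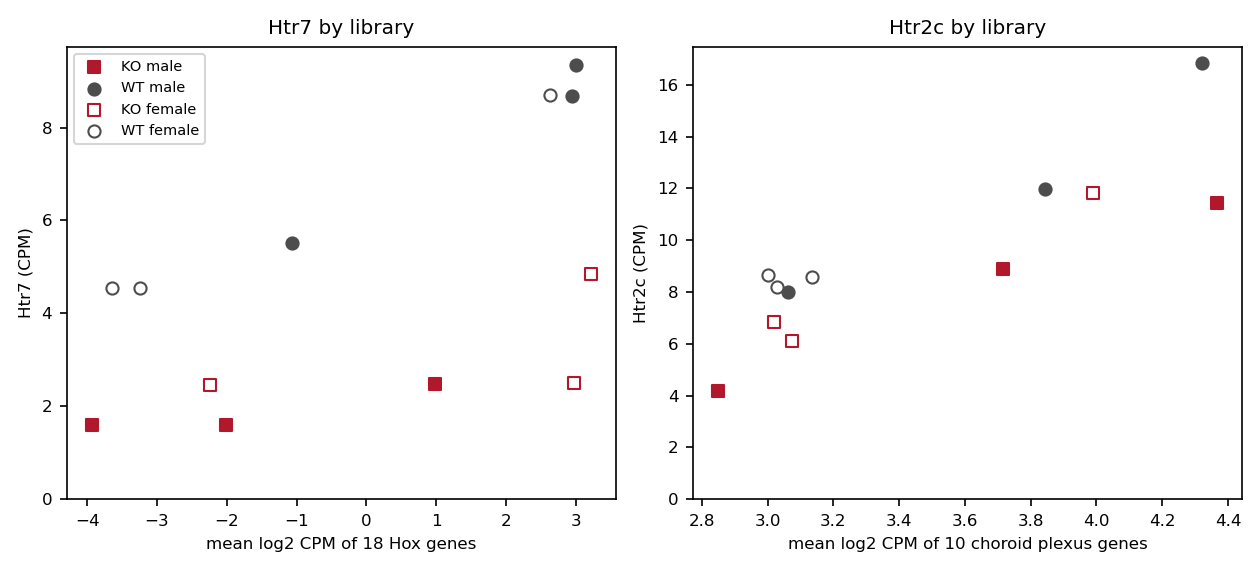
Left, Htr7 in CPM against the mean log2 CPM of 18 caudal Hox genes; right, Htr2c in CPM against the mean log2 CPM of 10 choroid plexus genes; each point is a library, squares KO and circles WT, filled males and open females. Htr7 in KO libraries lies below WT libraries at like Hox levels, and Htr2c climbs with the choroid plexus level in both genotypes.

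Htr4 (ENSMUSG00000026322, chr18:62324204-62496577, plus strand) encodes a receptor best known from the gut and the basal ganglia. It had 0.873, 1.36 and 0.994 CPM in KO males, against 1.96, 2.39 and 1.63 CPM in WT males, and 1.65, 1.153 and 0.876 CPM in KO females, against 1.67, 1.75 and 2.09 CPM in WT females. The KO libraries lay below the WT libraries within each sex, and KO female 1 lay just above WT male 3. The log2 fold change was -0.74 (SE 0.186, interval -1.14 to -0.342), with an adjusted p of 0.0626 by edgeR, which missed the threshold. DESeq2 and edgeR's likelihood ratio test both called Htr4, and DESeq2 also called Htr1b, where they called 588 and 447 of all genes lower, against 301 by the quasi-likelihood test.

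**Figure D4:**
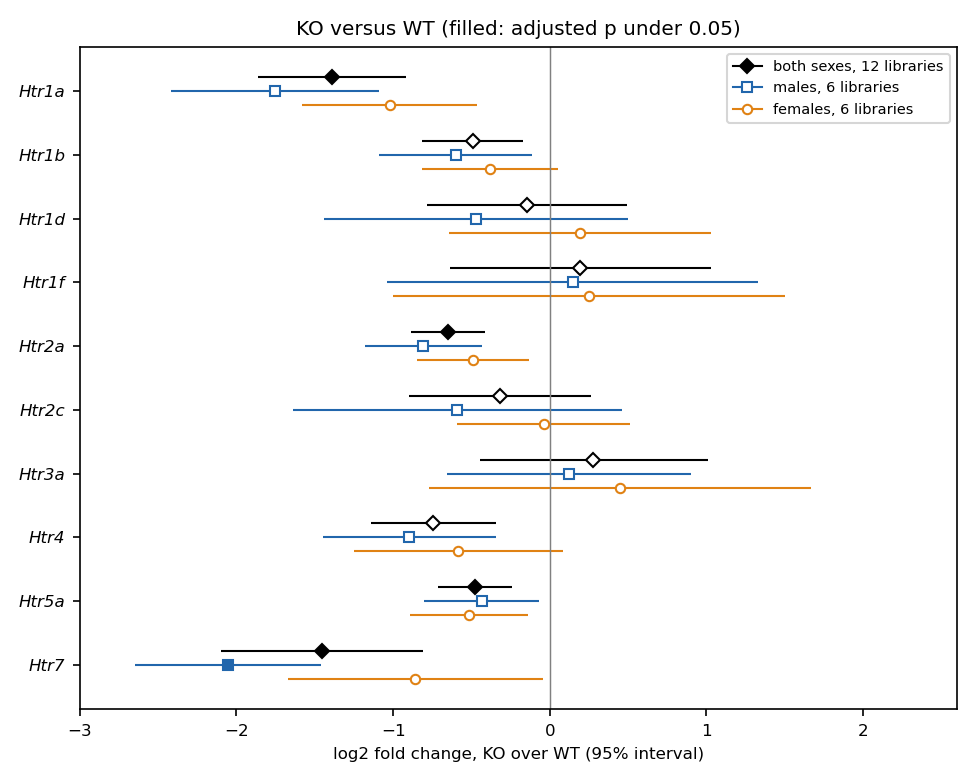
Log2 fold change of KO over WT for each serotonin receptor gene over both sexes (diamonds), in males (squares) and in females (circles), with 95% intervals; filled symbols have an adjusted p under 0.05. Filled symbols stand at Htr1a, Htr2a, Htr5a and Htr7 over both sexes and at Htr7 in males.

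To ask whether the sexes differed, each was then fitted alone and the difference was tested. In males Htr7 was lower in KO brains (log2 fold change -2.05, SE 0.259, adjusted p = 0.0203 by edgeR), and it was the only one of the 10 called lower, where 0.343% of all genes were called lower and 0.123% higher. The next were Htr1a at -1.75 (SE 0.289, adjusted p = 0.0537) and Htr2a at -0.81 (SE 0.164, adjusted p = 0.104). The median over the 10 genes was -0.595, against -0.00512 over all genes, and 8 of the 10 lay below 0, against 51.2% of all genes. All KO males lay below all WT males in 6 of the 10 genes, Htr1a, Htr1b, Htr2a, Htr4, Htr5a and Htr7, a pattern of 8.45% of all genes, and all lay above in none, against 8.87%. The male call of Htr7 was lost without KO male 1, KO male 3, WT male 2 or WT male 3, with adjusted p from 0.0109 to 0.133 over the 6 fits. It also missed the threshold with the Hox level as a term (log2 fold change -1.53, adjusted p = 0.0516).

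In females 0 of the 10 genes were called by edgeR in either direction, where 0.0107% of all genes were called lower and as many higher. At an unadjusted p under 0.05 there were 4 of the 10, against 7.48% of all genes, and DESeq2 called 1 of the 10, Htr1a, and 130 lower and 50 higher over all genes. Htr1a had the lowest log2 fold change, -1.02 (SE 0.242, adjusted p = 0.377 by edgeR), followed by Htr7 at -0.86 (SE 0.352, adjusted p = 0.643). The median over the 10 genes was -0.435, against 0.00725 over all genes, and 7 of the 10 lay below 0, against 48.4% of all genes. All KO females lay below all WT females in Htr1a, Htr2a, Htr4 and Htr5a, 4 of the 10, against 6.25% of all genes, and all lay above in none, against 7.57%.

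A difference between the sexes was not shown for any of the 10. The interaction of genotype and sex called 0 of them and 0% of all genes by edgeR, while DESeq2 called 5 of all genes and none of the 10. Htr7 had the smallest unadjusted p, 0.0287, for a female minus male difference of 1.19 in its log2 fold change (SE 0.479, interval 0.147 to 2.24, adjusted p = 0.91 by edgeR), and it was the only 1 of the 10 under an unadjusted 0.05, where 4.45% of all genes were. The median log2 fold change of the Hox genes was -2.56 in males and 0.895 in females (17 of the 18 tested in each), and its part in the difference for Htr7 was not tested.

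For each of the 10 genes, the genes whose level most resembled its own over the 12 libraries were listed, by Pearson's r of log2 CPM among 19767 genes. All of these libraries share the split between KO and WT, so a high r can arise from that split alone. A high r can also arise from picking the highest of 19767 values over only 12 libraries, and none of these values was tested. Htr1a was most like Ppp1r14c (r = 0.979) and Gria4 (r = 0.967), an inhibitor subunit of protein phosphatase and a subunit of AMPA glutamate receptors. Htr7 was most like Syndig1 (r = 0.971), which encodes a protein of excitatory synapses, and Adcy2 (r = 0.968), an adenylate cyclase. Htr2a was most like Tchh and Chsy3 (r = 0.962 and 0.958), and Htr5a most like Samd12 and Ablim3 (r = 0.976 and 0.97). Htr1b was most like Grm7, a metabotropic glutamate receptor (r = 0.953), and Jazf1 (0.941), and Htr4 most like Slc41a2 (0.93) and Faah (0.925), which breaks down anandamide. Htr2c resembled Bmp4 (r = 0.889), a secreted signal of the dorsal midline, and Htr3a was most like Kcnj10 (0.919) and Snhg18 (0.914). Htr1d and Htr1f, the lowest in level, had the lowest first values of r, 0.861 with Atp2b4 and 0.892 with Ppp1r16b.

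In the rest of the serotonin system the calls fell among G protein subunits and effectors. Of the other 4 receptor genes, Htr2b had 0 counts in all 12 libraries and was not tested, and Htr3b, Htr5b and Htr6 were tested over both sexes without a call. Htr6, the third Gs-coupled receptor, averaged 1.05 ± 0.184 CPM in KO brains and 1.34 ± 0.256 CPM in WT brains (SD, n = 6 each, log2 fold change -0.35, adjusted p = 0.363 by edgeR). Htr3b, which needs Htr3a to form a channel, was listed at 0 in 7 of the 12 libraries. None of the 14 tested genes of serotonin synthesis, transport and breakdown was called, and none of the 10 genes of serotonergic neuron identity. Over all genes 1.52% were called lower and 0.374% higher, so 0 calls in lists this short do not show that the genes were unchanged. Tph2, the rate-limiting enzyme of serotonin synthesis in neurons, had a log2 fold change of -0.42 (adjusted p = 0.846), Slc6a4, the serotonin transporter, -0.68 (adjusted p = 0.703), and Fev, a transcription factor of serotonergic neurons, -0.71 (adjusted p = 0.709, all by edgeR).

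Among 18 G protein subunits 1 was lower and 0 were higher in KO brains over both sexes. This was Gnal, which couples receptors to adenylate cyclase in the olfactory system and striatum, at -0.57 on the log2 scale (SE 0.111, adjusted p = 0.018 by edgeR). Among 21 effectors of serotonin receptors 6 were lower and 1 was higher, where 1.52% of all genes were called lower and 0.374% higher. The lower ones were 4 adenylate cyclases, Adcy1 at -0.41, Adcy2 at -1.54, Adcy5 at -0.34 and Adcy8 at -1.44, and 2 subunits of G protein-gated potassium channels, Kcnj3 at -0.44 and Kcnj6 at -0.60, all as log2 fold changes. The higher one was Plcb3, a phospholipase C, at 0.45 (SE 0.0798, adjusted p = 0.0104 by edgeR). The log2 fold change was below 0 for 18 of the 21, against 49.4% of all genes, and the median of the 21 was -0.10, against 0.00224 over all genes.

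Adcy2 and Adcy8, which make cyclic AMP, fell about as far as Htr1a and Htr7. Adcy2 had 6.40, 9.38 and 5.07 CPM in KO males, against 23.3, 33.1 and 28.8 CPM in WT males, and 7.83, 12.7 and 9.002 CPM in KO females, against 19.1, 17.5 and 24.1 CPM in WT females. The KO libraries all lay below the WT libraries (log2 fold change -1.54, SE 0.225, adjusted p = 0.0042 by edgeR). Adcy8 ran from 4.37 to 10.7 CPM over the KO libraries and from 13.0 to 22.4 CPM over the WT libraries (log2 fold change -1.44, SE 0.234, adjusted p = 0.00838 by edgeR). In males Adcy2 was the only effector called, and in females none was. Of 13 partners and regulators of the receptors 0 were called over both sexes, where 1.52% of all genes were called lower and 0.374% higher. The one farthest from 0 was S100a10, which carries some of these receptors to the cell surface, at -0.76 (adjusted p = 0.114 by edgeR).

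**Figure D5:**
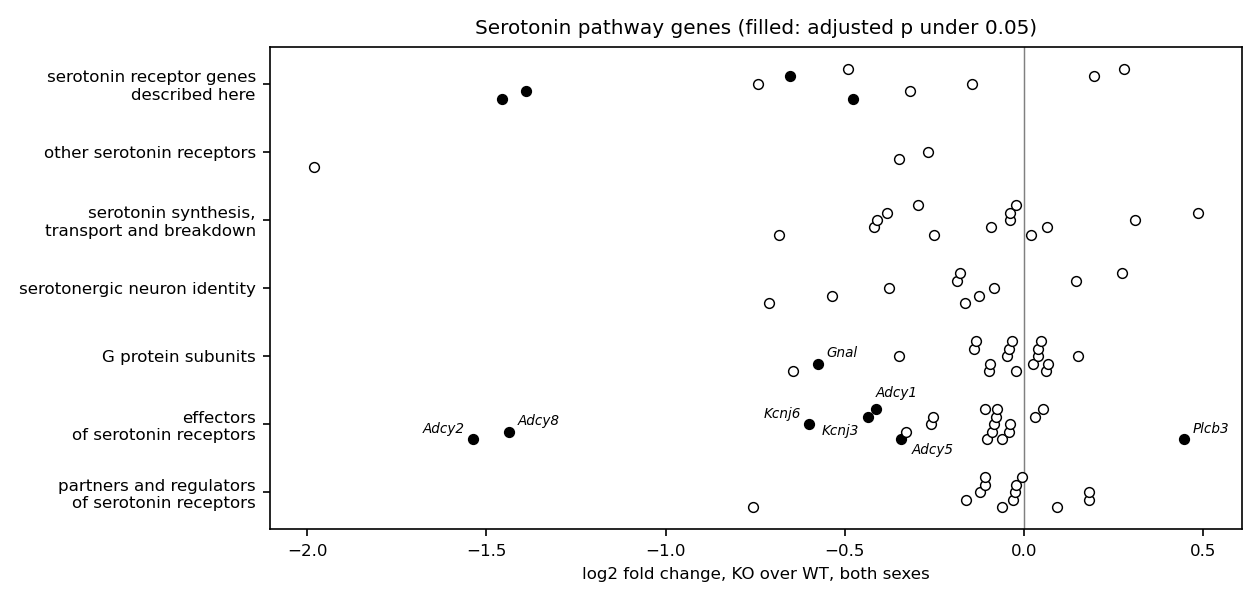
Log2 fold change of KO over WT over both sexes for the serotonin receptor genes described here and for 6 lists of the serotonin system; each point is a gene, and filled points have an adjusted p under 0.05. Filled points outside the receptors are Gnal, 6 effectors below 0 and Plcb3 above 0.

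The 14 lists of cell type and region markers, from thalamus and cortical neurons to microglia, meninges and blood, gave 0 calls in either direction. This held over both sexes and in each sex. Of all genes, 1.52% were called lower and 0.374% higher over both sexes, and 0.343% and 0.123% in males. In females 0.0107% were called each way. The median log2 fold changes of the lists over both sexes ran from -0.75 for the caudal Hox genes to 0.24 for the choroid plexus. They were -0.12 for the pan-neuronal genes, 0.17 for the thalamus and 0.05 for cortical neurons. Of 8 neural progenitor genes 0 lay below 0, and of 5 meninges genes 5 did. In males the thalamus list summed to 655 to 691 CPM in KO and 448 to 552 CPM in WT. All KO males lay above all WT males in 8.87% of all genes too. In females the genotypes overlapped in the thalamus list. The part of such shifts in the lower level of the 4 receptor genes was not tested, apart from the Hox and choroid plexus terms above.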

How the data were processed

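Counts per gene were deposited by the authors without normalization for 12 libraries of RNA from E15.5 brain. Per the labels and the study's methods, reads were trimmed with cutadapt 2.6, aligned to mm10 with HISAT2 2.1.0 and quantified with StringTie 2.0.6, whose script derives gene counts from coverage. Longer reads were first cut to the length of the shorter ones. The strand setting was not given in the sources used here. All sample columns were used.

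Genes were filtered with filterByExpr (minimum count 10, minimum total 15), normalized by TMM and tested by the quasi-likelihood F test of edgeR 4.0.16 in R 4.3.3, with Benjamini-Hochberg adjustment over all genes tested and a threshold of 0.05. CPM used TMM library sizes, and log2 CPM a prior count of 2. Intervals are 95% intervals from edgeR's degrees of freedom. Exon lengths and positions came from a GENCODE annotation of GRCm38, and promoters from RefSeq. Scripts were tested on simulated data. Removal of PCR copies was not stated for these libraries, and if they were kept, counting error is a lower limit.

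The genes and lists were chosen with earlier results of these data known. Named genes were the 10 receptors, Nsd2, Hoxa5, up to 2 genes a list (the called ones with the smallest adjusted p, else the most abundant) and the 2 most correlated genes for each receptor, of which 1 is not reported here. Kcnj3, Kcnj6, Adcy1, Adcy5, Plcb3, Tph2, Slc6a4, Fev and S100a10 were named after their values were seen. The p-values set each difference against the spread between these libraries, which edgeR estimates partly from other genes. Alternatives were RLE normalization, 2 filters, DESeq2 1.42.0, edgeR's likelihood ratio test and a replicate block. Others were the Hox level, the 2 sets split by Hoxa5 and leaving out each library. The choroid plexus level was added after seeing the data, as were the tests of the Hox and choroid plexus terms themselves.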

Additional observations from a re-analysis of the deposited data

Results flagged for a closer look

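In 3 of the 20 sets of 6 libraries examined (each of the 10 genes in KO and in WT brains), 1 library lay apart from the other 5 by Dixon's criterion, which chance meets in about 1 in 20 sets. Htr7 stood at 4.85 CPM in KO female 2, and the other KO libraries had 1.59 to 2.50 CPM. Htr5a stood at 8.70 CPM in WT male 2, and Htr1d at 1.06 CPM in KO female 1.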

How the results depend on the processing

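Over both sexes Htr1a and Htr2a were lower in KO brains under each alternative but the split by Hoxa5. In that split 0 of the 10 genes were called in the low set and 0 in the high set. The count of lower genes was 4 and ran from 2 to 4 without 1 library. It was 2 without KO male 1, KO male 3, KO female 3, WT male 2 or WT female 3, and Htr7 and Htr5a were then not called. It was 4 with RLE and with a CPM filter that tested 8 of the 10, 3 without a filter, 6 with DESeq2 and 5 with the likelihood ratio test. Over all genes the lower calls were 301, with 262 without a filter, 588 with DESeq2 and 447 with the likelihood ratio test.

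In males the count was 1 and ran from 0 to 1 without 1 library. It was 3 with DESeq2, 3 with the likelihood ratio test, 3 with the spread taken from all 12 libraries, 2 with the choroid plexus level and 0 with the Hox level. Over all genes the lower calls in males were 64, and in the same order 362, 271, 85, 145 and 9. In females it was 0 under each alternative except DESeq2, which called 1. No alternative called any of the 10 receptor genes higher.

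Whether replicate numbers paired the samples was not given, and 3 libraries per group cannot settle it. The deviations of same-numbered KO and WT libraries correlated at 0.0279, 0.185 and -0.0441 in males and 0.0511, -0.0519 and 0.195 in females. Those of differently numbered libraries ran from -0.129 to 0.116 in males and from -0.225 to 0.212 in females. With the replicate block 3 genes were lower over both sexes (Htr7 was not), 2 in males (Htr1a and Htr7) and 0 in females.

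Some log2 fold changes of genes that were not called turned sign, and the cause was not tested. Over both sexes Htr1d was 0.52 in the low Hoxa5 set, and in the high set Htr1f was -0.72, Htr2c 0.0042 and Htr3a -0.44. In males Htr1d was 0.015 with the Hox level. Leaving out 1 library, Htr1d ran from -0.30 to 0.20 over both sexes (above 0 without WT male 2). In males it ran from -0.76 to 0.20, Htr1f from -0.18 to 0.47 and Htr3a from -0.15 to 0.44. In females Htr1d ran from -0.073 to 0.44, Htr1f from -0.058 to 0.62 and Htr2c from -0.39 to 0.13. Htr1f had the lowest counts, with 7 to 20 counts in KO libraries and 6 to 18 in WT libraries.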
